A study of Mus musculus with 18 samples.

Results

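The data described here are the mRNA levels of 10 genes of ethanol and acetaldehyde metabolism in mouse cortical astrocyte cultures. The genes were taken by symbol, as enzymes of the 3 oxidative steps from ethanol to acetyl-CoA and their relatives, and no measured value enters the rule. *Adh5*, *Cat* and *Cyp2e1* encode enzymes that can turn ethanol or related substrates into aldehydes. *Aldh2*, *Aldh1b1*, *Aldh3a2*, *Aldh7a1* and *Aldh9a1* encode aldehyde dehydrogenases, and *Acss1* and *Acss2* encode acetyl-CoA synthetases. All 10 are among the 51912 genes counted, and 9 of them, all except *Cyp2e1*, had the 10 or more read pairs in the 18 libraries together that a gene needed to be tested, as 24495 genes did.

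The cultures came from cortices of newborn (postnatal day 0) hemizygous Aldh1l1-EGFP/Rpl10a mice. In these mice an EGFP-tagged copy of the ribosomal protein RPL10A is driven by the regulatory region of *Aldh1l1*, so that only cells with this activity carry tagged ribosomes. Cells were grown for 14 days, replated on 100 mm dishes, kept 6 more days in serum, placed in serum-free medium for 24 h, and then held for another 24 h in serum-free medium with 50 mM ethanol or without it (control, 0 mM). Libraries of the immunoprecipitated fraction (IP, RNA on tagged ribosomes) were made from 6 control and 6 ethanol-treated dishes. Libraries of the input fraction (RNA of the cleared lysate, set aside before the pull-down) were made from 3 of the same control dishes and 3 of the same ethanol dishes, numbered 4 to 6. Every animal carried the transgene, and cells of both sexes were mixed. The replicate is the dish, and whether the dishes came from separate cultures or litters is not given in the sources used here, so the p-values measure the spread between dishes.

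Ethanol is broken down in steps. Alcohol dehydrogenases in the cytosol, catalase in peroxisomes and CYP2E1 in the endoplasmic reticulum oxidise ethanol to acetaldehyde, a reactive and toxic compound. Mitochondrial aldehyde dehydrogenases, above all ALDH2, oxidise acetaldehyde to acetate, and acetyl-CoA synthetases join acetate to coenzyme A. In liver the first step is carried mainly by class I alcohol dehydrogenase, and in brain catalase and CYP2E1 are held to carry most of it. Astrocytes are known as one of the cell types of the brain that metabolise ethanol and take up acetate.

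The read pairs assigned to genes numbered 74239854 to 132810705 in a library (median 84119135). Levels are given as CPM, counts scaled to one common library size after TMM normalization. The 10 astrocyte markers examined (among them *Gfap*, *Aqp4*, *Slc1a3* and *Glul*) were all detected, and their summed level was 1515 to 1595 CPM in the 6 input libraries and 2383 to 2562 CPM in the 12 IP libraries. The 9 microglia markers summed to 86.3 to 101 CPM in input and 14.5 to 19.0 CPM in IP, and the 8 fibroblast and meningeal markers to 237 to 246 CPM in input and 128 to 145.9 CPM in IP. Of the 9 endothelial and mural markers *Cldn5* was at 0 in all 4 groups. The endothelial markers *Pecam1*, *Tek* and *Cdh5* were each under 1 CPM on average in all groups and *Kdr* was at 2.35 to 5.20 CPM, and the list's sum, 139 to 145.5 CPM in input and 97.5 to 108 CPM in IP, was mostly *Pdgfrb*. Neuron markers summed to 161 to 172 CPM in input and 207 to 231 CPM in IP, oligodendrocyte lineage markers to 143 to 156.01 and 200.3 to 222 CPM, and ependymal markers, mostly *Foxj1*, to 362 to 385 and 428 to 494 CPM.

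The 10 genes differed widely in level. Levels between genes were compared as CPM per kb of each gene's longest annotated transcript. *Cat* had the highest level in every group, with a mean of 53.0 ± 0.439 CPM per kb (SD, n = 3) in input control and 58.7 ± 1.09 CPM per kb (SD, n = 6) in IP control. In IP control its lowest library, at 57.1 CPM per kb, was above the highest library of any other of the 10 genes, *Aldh7a1* at 56.2 CPM per kb. *Aldh2* (53.7 ± 1.95 CPM per kb), *Aldh7a1* (53.2 ± 1.66 CPM per kb) and *Adh5* (51.6 ± 1.37 CPM per kb) followed in IP control, and the ranges of these 3 genes overlapped. In input control the same 3 genes did not overlap, with *Aldh2* at 46.1 to 47.7, *Adh5* at 41.7 to 42.3 and *Aldh7a1* at 38.3 to 39.3 CPM per kb.

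*Aldh3a2* formed a step below them, at 35.5 ± 1.002 CPM per kb in IP control. *Aldh9a1* (11.6 ± 0.281 CPM per kb), *Acss2* (8.09 ± 0.158 CPM per kb), *Acss1* (6.60 ± 0.237 CPM per kb) and *Aldh1b1* (3.32 ± 0.139 CPM per kb) came next in IP control, each apart from its neighbour. The same order of these genes was seen in input control, where *Acss2* (4.86 to 5.18 CPM per kb) lay above *Acss1* (4.39 to 4.60 CPM per kb). In the counts used here, without regard to strand, *Acss2* had 39186 read pairs over all libraries, against 48232 in counts of the sense strand alone. The order was not redone with sense strand counts. The order also rests on the length used. With the length of all annotated exons merged, *Cat* stayed first at 58.7 CPM per kb in IP control, *Aldh7a1* (42.4) passed *Aldh2* (40.5), *Adh5* was at 35.5, and *Acss2*, with 10163 bases of merged exons against 3609 in its longest transcript, came below *Aldh1b1* at 2.87 against 3.32 CPM per kb.

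**Figure D1:**
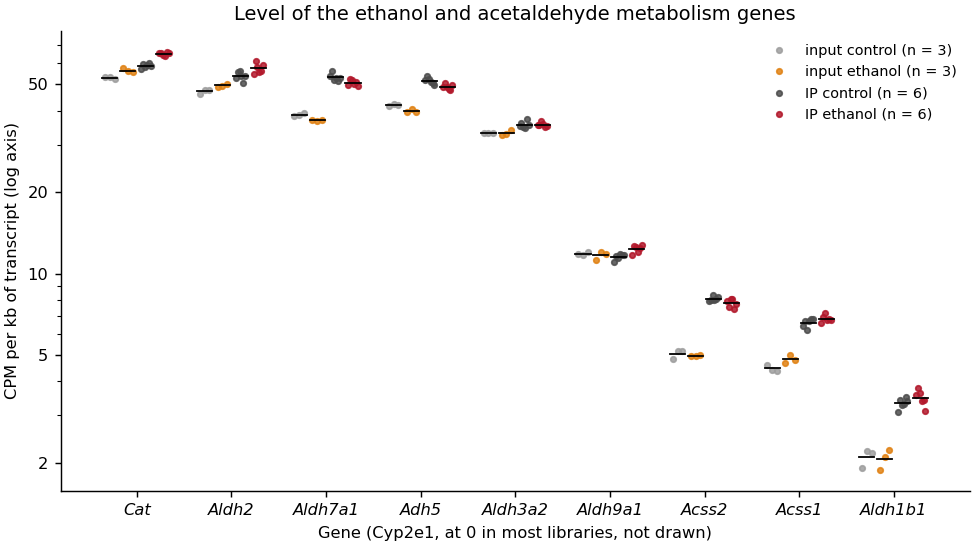
Level of each gene in each library as CPM per kb of its longest transcript, on a log axis, with 1 point per library and a bar at the mean of each group. *Cat* is highest in all 4 groups, *Aldh2*, *Aldh7a1* and *Adh5* follow, and *Aldh1b1* is the lowest of the 9 genes drawn, at 1.89 to 3.79 CPM per kb.

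*Cyp2e1* (ENSMUSG00000025479, GRCm38 chromosome 7, 140763739 to 140774987, plus strand), the ethanol-inducible cytochrome P450, was at or near 0. It had 8 read pairs in all 18 libraries together. In 14 libraries it had none, and the others had 3 pairs (input control replicate 6), 2 pairs (input ethanol replicate 5), 2 pairs (IP control replicate 5) and 1 pair (IP ethanol replicate 1). A count of 0 allows up to 3 pairs, which is 0.0228 to 0.0409 CPM depending on the library, and no library had more than 3 pairs. These limits cover counting error only. *Cyp2e1* was not tested, and any change with ethanol was not detectable at this depth. The class I alcohol dehydrogenase gene *Adh1*, the main enzyme of ethanol oxidation in liver, was also near 0, at 0.115 ± 0.0619 CPM in input (n = 6) and 0.0323 ± 0.0327 CPM in IP (n = 12). Of the first step, *Adh5* and *Cat* were the genes with many reads.

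The stretch upstream of the start is shown for *Cat* and *Adh5*, the genes of the first step that changed with ethanol in both fractions, in opposite directions. RefSeq windows around the start (250 bases before to 50 after, GRCm38.p6) were used for 8 of the 10 genes. No window was used for *Aldh2* or *Aldh7a1*, so their upstream letters were not examined. The windows were searched on both strands for the TATA box (letters TATAAA), the CAAT box (letters CCAAT), the GC box (letters GGGCGG), the E-box (letters CACGTG) and the core of the antioxidant response element (letters TGACNNNGC). The bases before the first annotated base of each gene are printed 5′ to 3′ on the strand of the gene, with matches in capitals. *Cat* lies on the minus strand, and its stretch is chr2:103485161-103485403. *Adh5* lies on the plus strand, and its stretch is chr3:138442843-138443092.
Cat: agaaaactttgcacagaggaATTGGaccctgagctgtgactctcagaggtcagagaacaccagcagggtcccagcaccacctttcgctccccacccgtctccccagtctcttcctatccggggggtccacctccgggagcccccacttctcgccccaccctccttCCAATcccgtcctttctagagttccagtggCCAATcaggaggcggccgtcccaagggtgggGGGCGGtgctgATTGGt
Adh5: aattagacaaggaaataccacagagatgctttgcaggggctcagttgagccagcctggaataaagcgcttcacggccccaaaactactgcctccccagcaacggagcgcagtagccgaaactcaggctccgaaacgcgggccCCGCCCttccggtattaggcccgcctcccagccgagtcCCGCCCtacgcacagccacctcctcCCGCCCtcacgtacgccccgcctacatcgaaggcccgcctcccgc

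The *Cat* window held 4 CAAT boxes, of which 2 lay on each strand, and 1 GC box, with first bases at -230, -85, -55 and -13 and at -24 relative to the RefSeq start. The *Adh5* window at this start held 3 GC boxes on the opposite strand, at -108, -70 and -45, and no CAAT box. A second RefSeq window of *Adh5*, further upstream, held 1 TATA box and none of the other letters. The *Cyp2e1* window had a TATA box at -31 and 2 CAAT boxes. A match is a description of the letters only, since 37.4% of all 32851 windows held a CAAT box, 35.7% a GC box, 13.6% a TATA box, 12.4% the antioxidant core and 7.15% an E-box. The antioxidant core occurred in the windows of *Aldh9a1* and *Acss2*, and an E-box in that of *Aldh3a2*.

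IP and input were compared to ask which of these mRNAs were over- or under-represented on tagged ribosomes relative to input. In the fit over 18 libraries with a term for treatment, 8 of the 9 genes tested were higher in IP and none was lower, by edgeR's quasi-likelihood test with Benjamini-Hochberg adjustment over all genes. This test called 51% of all genes tested, 25.2% as higher and 25.8% as lower in IP. The median log2 fold change was 0.30 over the 9 genes and -0.028 over all genes tested. Every IP library was above every input library for 7 of the 9 genes, which was so for 13.1% of all genes tested (25% without overlap in either direction), and *Cat* and *Aldh9a1* overlapped. The enrichment was large for *Aldh1b1*, *Acss2*, *Acss1* and *Aldh7a1* and small for *Aldh2*, *Cat* and *Aldh3a2*. In bulk RNA, more cells with tagged ribosomes, more RNA per cell and more RNA on ribosomes cannot be told apart. The summed marker levels moved with this comparison. Of the microglia markers 8 of 9 were called lower in IP (*P2ry12* was not called), of the fibroblast and meningeal markers 5 of 8 were lower and *Col1a2*, *Foxc1* and *Pdgfra* higher, and of the astrocyte markers 9 of 10 were higher and *S100b* lower. Their part in the result was not tested.

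*Aldh1b1* (ENSMUSG00000035561, chromosome 4, 45799022 to 45804604, plus strand) encodes a mitochondrial aldehyde dehydrogenase that also accepts acetaldehyde. It ranged from 4.33 to 5.14 CPM (median 4.92) in input and from 7.10 to 8.71 CPM (median 7.81) in IP. The fractions did not overlap, and the difference of 0.70 on the log2 scale (SE 0.0510, adjusted p = 2.22e-20) was the largest of the 9.

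The acetyl-CoA synthetase genes were both enriched. *Acss2* (ENSMUSG00000027605, chromosome 2, 155517948 to 155585724, plus strand), which encodes the enzyme of cytosol and nucleus, had 17.5 to 18.7 CPM (median 18.0) in input and 26.8 to 30.0 CPM (median 28.8) in IP. Its log2 fold change was 0.66 (SE 0.0292, adjusted p = 7.59e-32), and 0.66 also with sense strand counts. *Acss1* (ENSMUSG00000027452, chromosome 2, 150618105 to 150668500, minus strand), which encodes the mitochondrial enzyme, had 15.9 to 18.2 CPM (median 16.8) in input and 22.5 to 25.9 CPM (median 24.4) in IP. *Acss1* differed by 0.53 on the log2 scale (SE 0.0311, adjusted p = 6.37e-25). For both genes every IP library was above every input library.

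*Aldh7a1* (ENSMUSG00000053644, chromosome 18, 56509687 to 56572951, minus strand) encodes antiquitin, which oxidises an aldehyde of lysine breakdown. It had 151.9 to 162 CPM (median 155.6) in input and 204 to 232 CPM (median 215) in IP, with no overlap and a difference of 0.46 on the log2 scale (SE 0.0194, adjusted p = 4.74e-33). *Adh5* (ENSMUSG00000028138, chromosome 3, 138443093 to 138455499, plus strand) encodes class III alcohol dehydrogenase, which acts on glutathione adducts of formaldehyde and nitric oxide and oxidises ethanol poorly. It ranged from 147.4 to 158 CPM (median 153.001) in input and from 178 to 200.1 CPM (median 187) in IP, or 0.30 higher on the log2 scale (SE 0.0189, adjusted p = 3.82e-23). The fractions of *Adh5* did not overlap either.

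*Cat* had 137 to 149.97 CPM (median 142) in input and 149.3 to 172 CPM (median 161) in IP, and the fractions overlapped where the highest input library, ethanol replicate 4, lay above the lowest IP control library. The difference between fractions was smaller for *Aldh2* (log2 fold change 0.20, SE 0.0207, adjusted p = 1.27e-13), *Cat* (0.18, SE 0.0188, adjusted p = 4.50e-13) and *Aldh3a2* (0.10, SE 0.0200, adjusted p = 1.06e-05). *Aldh3a2* (ENSMUSG00000010025, chromosome 11, 61223417 to 61267464, minus strand) encodes fatty aldehyde dehydrogenase. *Aldh9a1* (ENSMUSG00000026687, chromosome 1, 167349991 to 167368532, plus strand), whose enzyme acts on aldehydes of carnitine and GABA synthesis, was the gene not called. It had 31.9 to 34.1 CPM (median 33.5) in input and 31.3 to 36.1 CPM (median 33.4) in IP, and the fractions overlapped. Its log2 fold change was 0.022 (SE 0.0268, 95% interval -0.032 to 0.075, adjusted p = 0.539). With total counts as the scaling, which moved the median of all genes by -0.051, it was -0.029, and in control libraries alone -0.049. Against a null of a 1.2-fold change in place of no change, *Aldh1b1*, *Acss2*, *Acss1* and *Aldh7a1* remained called (background 20.2% of all genes), and *Adh5* missed the threshold (adjusted p = 0.0517).

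In 6 dishes both fractions were sequenced, so that IP and input could be compared within a dish. The ratio of IP to input CPM of *Aldh1b1* was 1.72, 1.58 and 1.56 in control dishes 4 to 6 and 1.79, 1.63 and 1.39 in ethanol dishes 4 to 6. For *Acss2* the ratio was 1.64, 1.57 and 1.59 in control and 1.63, 1.49 and 1.54 in ethanol dishes. In *Acss1* it was 1.45, 1.53 and 1.55 in control and 1.44, 1.35 and 1.39 in ethanol dishes, so that the 3 control dishes lay above the 3 ethanol dishes. The ratio was above 1 in 6 of 6 dishes for 8 genes, with a range of 1.33 to 1.39 for *Aldh7a1*, 1.18 to 1.25 for *Adh5*, 1.06 to 1.17 for *Aldh2*, 1.10 to 1.18 for *Cat* and 1.03 to 1.12 for *Aldh3a2*. For *Aldh9a1* it was above 1 in 4 of 6 dishes, with a range of 0.974 to 1.08. Its ratio was 1.004, 0.993 and 0.974 in control and 1.07, 1.04 and 1.08 in ethanol dishes. Here the 3 ethanol dishes lay above the 3 control dishes, the reverse of *Acss1*. The ratios of the other genes overlapped between treatments. How often 3 dishes lay apart from 3 in this way among all genes was not counted, so the separation is a description only. Neither *Acss1* nor *Aldh9a1* passed in the test of the interaction given below.

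**Figure D2:**
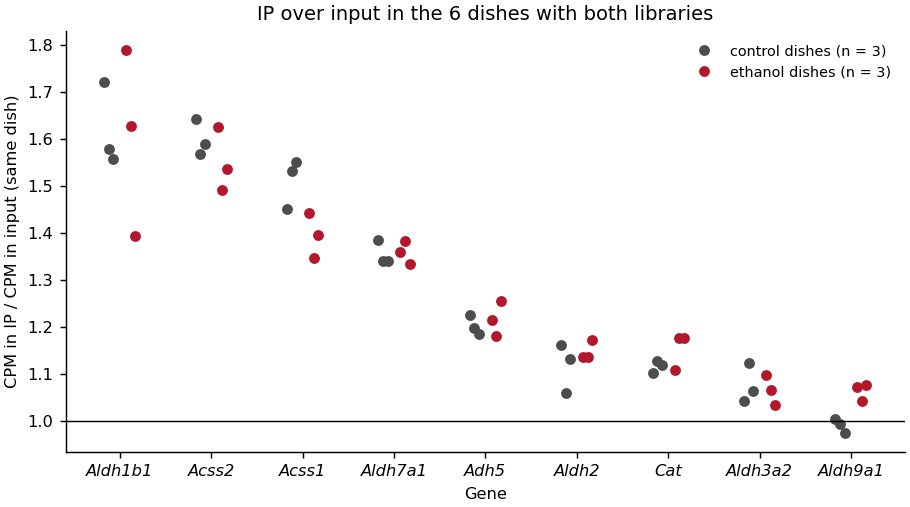
Ratio of CPM in IP to CPM in input of the same dish, with 1 point for each of the 6 dishes with both libraries, and a line at 1. The genes run from *Aldh1b1* (median ratio 1.60) to *Aldh9a1* (median 1.02), the gene with points on both sides of 1.

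Control and ethanol-treated dishes were compared within each fraction to ask which of these mRNAs changed after 24 h of 50 mM ethanol. All changes were small. In IP *Cat*, *Aldh2* and *Aldh9a1* were upregulated, by 11.2%, 7.39% and 7.47%, and *Adh5* was downregulated, by a log2 fold change of -0.066. In input *Cat* and *Aldh2* were upregulated, by 5.89% and 4.91%, and *Adh5* and *Aldh7a1* were downregulated, by log2 fold changes of -0.079 and -0.071. This makes 4 of 9 genes called in IP, where 21.4% of all genes were called (11.9% as higher and 9.48% as lower), and 4 of 9 in input, where 15% of all genes were called (7.21% as higher and 7.78% as lower). The median log2 fold change over the 9 genes was 0.055 in IP and -0.023 in input, and over all genes tested 0.0054 and -0.00092. Tested against a 1.2-fold change, none of the 9 genes passed in either fraction (0.388% of all genes in IP and 0.225% in input did). In IP the summed astrocyte markers were 2383 to 2461 CPM in control and 2474 to 2562 CPM in ethanol libraries, with no overlap. By edgeR 4 of the 10 (*Aqp4*, *Slc1a3*, *Slc1a2* and *Sox9*) were higher, *Glul* was lower (log2 fold change -0.061, adjusted p = 0.0342), and *Aldh1l1*, *Gfap*, *Aldoc*, *Gja1* and *S100b* were not called. The part of this in the values below was not tested.

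*Cat* (ENSMUSG00000027187, chromosome 2, 103453849 to 103485160, minus strand) encodes catalase, the peroxisomal enzyme that degrades hydrogen peroxide and can oxidise ethanol with it. In IP it had 149.3 to 157 CPM (median 153.5) in the 6 control libraries and 166.2 to 172 CPM (median 170.5) in the 6 ethanol libraries. Every ethanol library was above every control library, which held for 5.09% of all genes (4.87% in the lower and 9.96% in either direction). It was the 1 gene of the 9 without overlap in IP. The log2 fold change was 0.15 (SE 0.0232, 95% interval 0.11 to 0.20, adjusted p = 5.40e-07, edgeR's quasi-likelihood test), and the call held with each of the 12 libraries left out, with the gene at 0.14 to 0.16.

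In input *Cat* had 139, 139 and 137 CPM in control replicates 4 to 6 and 149.97, 146.2 and 145.001 CPM in ethanol replicates 4 to 6. The groups did not overlap, as for 14% of all genes in this direction, and 5 of the 9 genes were without overlap in input, as were 27.1% of all genes. *Cat* rose by 0.083 on the log2 scale (SE 0.0241, 95% interval 0.035 to 0.13, adjusted p = 0.00659). The call was lost without input control replicate 6 (adjusted p = 0.0662) and without input ethanol replicate 4 (adjusted p = 0.0534).

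*Adh5* went the other way. In IP it had 186 to 200.1 CPM (median 192) in control and 178 to 188 CPM (median 183) in ethanol libraries. The groups overlapped, and all 6 ethanol libraries were below the control median. The log2 fold change was -0.066 (SE 0.0237, 95% interval -0.11 to -0.018, adjusted p = 0.0367). This call was lost without IP control replicate 2 (adjusted p = 0.0903), IP control replicate 3 (0.0580), IP ethanol replicate 4 (0.0971) or IP ethanol replicate 5 (0.0656). It was also lost with IP replicates 4 to 6 alone (-0.058, adjusted p = 0.235) or 1 to 3 alone (-0.084, adjusted p = 0.110).

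In input *Adh5* had 155.2, 158 and 157 CPM in control replicates 4 to 6 and 147.6, 150.8 and 147.4 CPM in ethanol replicates 4 to 6. The ethanol libraries were all below the control libraries, as for 13.1% of all genes. On the log2 scale the change was -0.079 (SE 0.0238, 95% interval -0.13 to -0.032, adjusted p = 0.00955). The call was lost without input control replicate 5 (adjusted p = 0.0608) or input ethanol replicate 4 (0.0516).

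**Figure D3:**
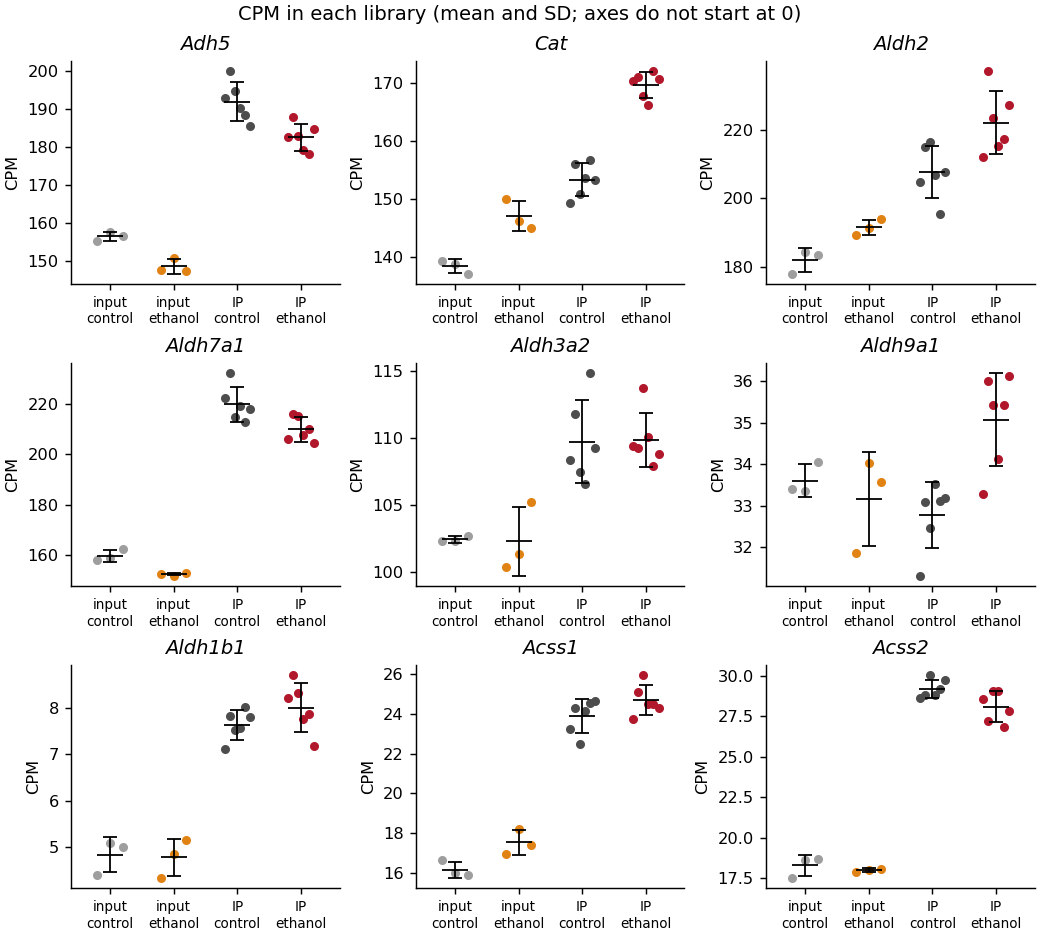
CPM of each gene in each library, with 1 point per library, the mean as a bar and the SD as error bars, for input control and ethanol (n = 3 each) and IP control and ethanol (n = 6 each), and axes that do not start at 0. *Cat* is higher with ethanol in both fractions without overlap, from 153.3 to 169.6 CPM on average in IP, and *Adh5* is lower, from 192 to 183 CPM on average in IP.

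Of the aldehyde dehydrogenases, *Aldh2* (ENSMUSG00000029455, chromosome 5, 121566027 to 121593824, minus strand) encodes the mitochondrial enzyme with the highest affinity for acetaldehyde. In IP it had 196 to 216 CPM (median 207) in control and 212 to 237 CPM (median 220.4) in ethanol libraries. The groups overlapped, and all 6 ethanol libraries were above the control median. The log2 fold change was 0.10 (SE 0.0259, 95% interval 0.051 to 0.15, adjusted p = 0.00188), and it passed without each of the 12 libraries in turn (adjusted p 0.000563 to 0.0270). The call was lost with IP replicates 1 to 3 alone (0.084, adjusted p = 0.103).

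In input *Aldh2* had 178, 185 and 184 CPM in control replicates 4 to 6 and 189.5, 192 and 194 CPM in ethanol replicates 4 to 6. The groups did not overlap. On the log2 scale *Aldh2* was higher by 0.069 (SE 0.0232, 95% interval 0.024 to 0.11, adjusted p = 0.0238). The call was lost without input control replicate 4 (adjusted p = 0.197), input control replicate 6 (0.0554) or input ethanol replicate 6 (0.150).

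*Aldh7a1* was lower with ethanol in input, where it had 158, 159 and 162 CPM in control replicates 4 to 6 and 152.6, 151.9 and 153.1 CPM in ethanol replicates 4 to 6, with no overlap. The log2 fold change there was -0.071 (SE 0.0237, 95% interval -0.12 to -0.025, adjusted p = 0.0225). It was lost without input control replicate 6 (adjusted p = 0.157), input ethanol replicate 4 (0.0629) or input ethanol replicate 5 (0.0708), and with total counts as the scaling (0.0557). In IP *Aldh7a1* had 213 to 232 CPM (median 218) in control and 204 to 216 CPM (median 209) in ethanol libraries, which overlapped. Its log2 fold change of -0.059 (SE 0.0241, 95% interval -0.11 to -0.011) had an adjusted p of 0.0714. It passed without IP control replicate 3 (adjusted p = 0.0454), IP control replicate 5 (0.0409), IP ethanol replicate 2 (0.0293) or IP ethanol replicate 3 (0.0209), and with DESeq2 (0.0185), DESeq2's size factors (0.0344), the filterByExpr filter (0.0240), sense strand counts (0.0321) or GC and length trends removed (0.000982).

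*Aldh9a1* differed between the fractions in its call. In IP it had 31.3 to 33.5 CPM (median 33.1) in control and 33.3 to 36.1 CPM (median 35.4) in ethanol libraries, with an overlap at 1 end. All 6 ethanol libraries were above the control median, and the log2 fold change was 0.10 (SE 0.0316, 95% interval 0.041 to 0.17, adjusted p = 0.0112). The call was lost without IP control replicate 1 (adjusted p = 0.0624), the library with the lowest value. It was also lost with IP replicates 4 to 6 alone (0.081, adjusted p = 0.242) or 1 to 3 alone (0.12, adjusted p = 0.100). In input *Aldh9a1* had 33.4, 33.4 and 34.1 CPM in control replicates 4 to 6 and 31.9, 34.0 and 33.6 CPM in ethanol replicates 4 to 6, a log2 fold change of -0.024 (SE 0.0392, 95% interval -0.10 to 0.053, adjusted p = 0.798).

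The other aldehyde dehydrogenases were not called in either fraction. *Aldh3a2* had 107 to 115 CPM in IP control libraries and 108 to 114 CPM with ethanol in IP, with a log2 fold change of 0.0093 (95% interval -0.040 to 0.059, adjusted p = 0.857). In input it was -0.0062 (95% interval -0.057 to 0.045, adjusted p = 0.932). For *Aldh1b1* the log2 fold change was 0.076 in IP (95% interval -0.030 to 0.18, adjusted p = 0.359) and -0.023 in input (95% interval -0.21 to 0.16, adjusted p = 0.930). *Aldh1b1* had the fewest reads of the 9 genes and the widest intervals.

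As a share of the 5 aldehyde dehydrogenase genes together, in CPM per kb, *Aldh2* made up 34.1% ± 0.893 of them in the IP control libraries and 36.0% ± 0.783 in those treated with ethanol (SD, n = 6 each). These IP groups overlapped, with the highest control library at 35.6% and the lowest ethanol library at 35.3%. In input the share of *Aldh2* was 35.5% ± 0.347 in control and 37.2% ± 0.102 in ethanol libraries (SD, n = 3 each). The input groups did not overlap. The share of *Aldh7a1* was 33.8% ± 0.605 in control against 31.8% ± 0.432 with ethanol in IP, and 29.1% ± 0.233 against 27.7% ± 0.357 in input, with no overlap in either fraction. The shares of *Aldh3a2*, which was not called, were 22.6% ± 0.756 and 22.3% ± 0.528 in IP. *Aldh1b1* held 1.43% to 2.30% of the 5 genes in any library. The shares in a library are parts of the same total, so a rise of *Aldh2* and a fall of *Aldh7a1* are not separate observations. These shares are a description. No test was made of them, and no comparable count over all genes.

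Neither acetyl-CoA synthetase gene was called with ethanol. *Acss1* had 22.5 to 24.6 CPM (median 24.2) in IP control libraries and 23.7 to 25.9 CPM (median 24.5) with ethanol in IP, which is 0.055 on the log2 scale (95% interval -0.015 to 0.12, adjusted p = 0.304). In input it had 16.6, 16.0 and 15.9 CPM in control replicates 4 to 6 and 17.0, 18.2 and 17.4 CPM in ethanol replicates 4 to 6. The input groups did not overlap, and the log2 fold change of 0.11 (SE 0.0533, 95% interval 0.0084 to 0.22) had a p of 0.0342 before and 0.158 after adjustment over all genes in edgeR's test.

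*Acss2* had 28.6 to 30.0 CPM in IP control libraries and 26.8 to 29.0 CPM with ethanol in IP, which is -0.048 on the log2 scale (95% interval -0.11 to 0.018, adjusted p = 0.355). In input it had 17.5, 18.6 and 18.7 CPM in control and 17.9, 18.0 and 18.1 CPM in ethanol replicates 4 to 6, a log2 fold change of -0.028 (95% interval -0.13 to 0.073, adjusted p = 0.821) that was 0.0017 with sense strand counts. *Acss2* overlaps *Acss2os*, *Gss* and *Ggt7* on the other strand, and 29.2% of the strand-assigned pairs on it were antisense, against 0% to 1.17% for the other 9 genes. The counts used, without regard to strand, held 39186 pairs on *Acss2* over all libraries, fewer than the 48232 sense pairs.

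**Figure D4:**
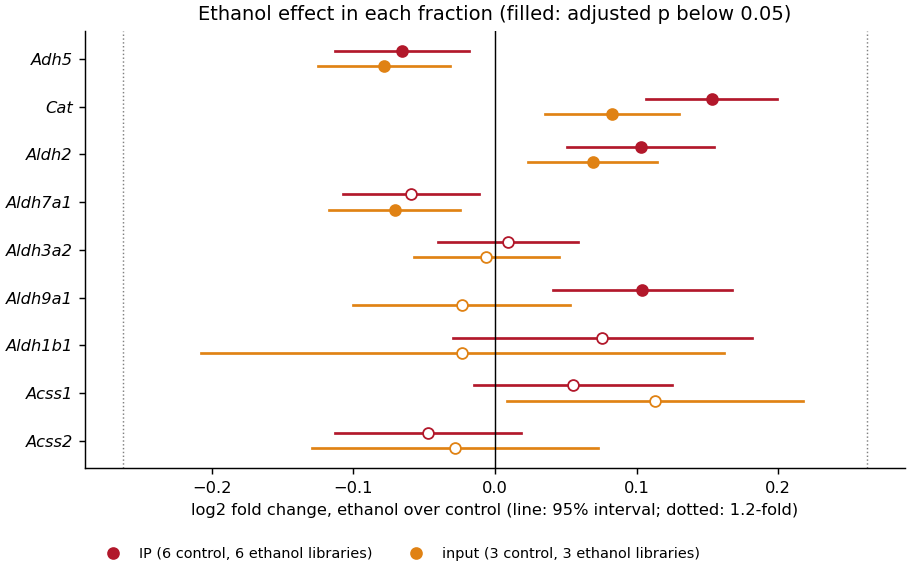
Log2 fold change of ethanol over control for the 9 genes tested, in IP and input, with the 95% interval as a line, filled points for an adjusted p below 0.05, and dotted lines at a 1.2-fold change. The fold changes run from -0.079 (*Adh5*, input) to 0.15 (*Cat*, IP), inside the dotted lines.

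Whether the effect of ethanol differed between IP and input was tested as an interaction. None of the 9 genes passed over 18 libraries, by edgeR's quasi-likelihood test or by DESeq2. None passed with the dish as a block, which was fitted with edgeR only. The edgeR test called 0% of the 24495 genes, 1459 had an unadjusted p under 0.05, and DESeq2 called 2 genes. A fit that blocked by dish, using the 12 libraries from dishes with input and IP, called 0.416% of all genes. The difference, IP minus input, was 0.059 for *Cat* (95% interval -0.014 to 0.13, adjusted p = 0.865). For *Aldh9a1*, called in IP and not in input, it was 0.12 (95% interval 0.012 to 0.22, unadjusted p = 0.0288, adjusted p = 0.817, edgeR's quasi-likelihood test), and with the dish as a block 0.12 (adjusted p = 0.585). For *Adh5*, *Aldh2* and *Aldh7a1* it was 0.0014, 0.023 and 0.00053, with intervals of -0.073 to 0.076, -0.059 to 0.10 and -0.076 to 0.077. For *Acss1*, whose dish ratios were lower with ethanol, it was -0.069 (95% interval -0.19 to 0.053, adjusted p = 0.912).

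Genes around these steps were examined in 8 lists, each set beside the median log2 fold change of all genes tested (-0.028 for IP over input, 0.0054 for ethanol in IP and -0.00092 for ethanol in input). The counts in each list stand beside the shares of all genes called. Between fractions these were 25.2% higher and 25.8% lower in IP. With ethanol they were 11.9% higher and 9.48% lower in IP, and 7.21% higher and 7.78% lower in input. Of 9 other alcohol and aldehyde reductases 6 were tested. *Akr1b3*, which encodes aldose reductase, was downregulated in both fractions, from 145.5 to 127 CPM in IP (log2 fold change -0.18, SE 0.0259, adjusted p = 1.01e-07) and from 106 to 93.1 CPM in input (-0.19, SE 0.0262, adjusted p = 1.95e-11). *Esd*, which encodes the esterase that follows *Adh5* in formaldehyde oxidation, was upregulated, from 273 to 296 CPM in IP (0.12, adjusted p = 6.45e-05) and from 266 to 288 CPM in input (0.11, adjusted p = 3.17e-05). *Akr1a1*, an aldehyde reductase gene, had a log2 fold change of -0.064 in input (adjusted p = 0.0342), which missed the threshold without input control replicate 4 (0.0961), input control replicate 5 (0.168), input ethanol replicate 4 (0.0548), input ethanol replicate 5 (0.0626) or input ethanol replicate 6 (0.0938). In IP 1 of the 6 was higher and 1 lower, and in input 1 was higher and 2 lower, with medians of -0.10 and 0.0059. *Adh7* and *Adh1*, at under 1 CPM, were lower in IP than in input (log2 fold changes -1.66 and -1.81), opposite to *Adh5*.

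Of 14 other aldehyde dehydrogenase genes tested, 3 were higher and 3 lower with ethanol in IP, and 1 was higher and 5 lower in input, with medians of 0.021 and -0.055. The largest change among those that passed was that of *Aldh1a7*, an aldehyde dehydrogenase gene near-identical in part to *Aldh1a1*. *Aldh1a7* fell from 7.75 to 5.76 CPM in IP (log2 fold change -0.42, SE 0.0570, adjusted p = 3.28e-08) and from 7.80 to 6.20 CPM in input (-0.34, SE 0.0801, adjusted p = 0.000491). Read pairs that aligned to several places were not counted, so the split between this pair of genes is uncertain. *Aldh3b1* fell from 48.7 to 41.9 CPM in IP (-0.21, adjusted p = 5.15e-07) and from 49.9 to 44.0 CPM in input (-0.19, adjusted p = 1.72e-06). *Aldh1l2*, a mitochondrial folate enzyme gene, rose from 3.40 to 4.14 CPM in IP (0.30, adjusted p = 0.00128), and *Aldh3a1* fell from 17.5 to 15.1 CPM in input (-0.22, adjusted p = 0.00109). Between fractions 7 of the 14 were higher in IP and 3 lower. The 3 lower were *Aldh3a1*, *Aldh1a2* and *Aldh1a3* (log2 fold changes -2.01, -1.76 and -1.46).

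Of 16 genes of acetate and acetyl-CoA handling, 1 was higher with ethanol in IP and none lower, and 1 was higher and 2 lower in input, with medians of 0.013 and -0.014. *Slc16a1*, which encodes the monocarboxylate transporter MCT1, was the gene that rose in both, from 79.1 to 89.0 CPM in IP (log2 fold change 0.18, SE 0.0267, adjusted p = 3.70e-07) and from 59.8 to 64.1 CPM in input (0.095, SE 0.0305, adjusted p = 0.0154). The input call was lost without input control replicate 4 (adjusted p = 0.169), input ethanol replicate 4 (0.104) or input ethanol replicate 6 (0.0730). *Acly*, which encodes the enzyme that makes cytosolic acetyl-CoA from citrate, fell in input from 147.4 to 136 CPM (-0.12, adjusted p = 1.69e-05). *Srebf1*, which encodes a regulator of lipid synthesis, was at -0.075 in input (adjusted p = 0.0195) and missed the threshold with DESeq2 (0.0849) and without input control replicate 5 (0.223), input control replicate 6 (0.243) or input ethanol replicate 6 (0.115). In IP against input 8 of the 16 were higher and 4 lower, among them *Slc16a1* at 0.44 and *Slc16a3*, another monocarboxylate transporter gene, at -1.74.

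Catalase works in peroxisomes, and of 17 genes of peroxisome import and beta-oxidation 2 were higher and 2 lower with ethanol in IP, and none higher and 3 lower in input, with medians of 0.015 and -0.016. *Pex6* rose in IP from 66.7 to 72.9 CPM (log2 fold change 0.14, adjusted p = 8.09e-05), and this call was lost when trends of GC content and length were removed (adjusted p = 0.182). *Pex5*, which encodes the import receptor for catalase and most other matrix proteins, was at 0.10 in IP (adjusted p = 0.00932) and missed the threshold without IP ethanol replicate 2 (0.0914). *Pex19*, needed for membrane proteins, fell in both fractions (log2 fold changes of -0.12 in IP with an adjusted p of 7.79e-05, and of -0.17 in input with one of 1.06e-10). In IP against input 10 of the 17 were higher and 1 lower, with *Hsd17b4* at 0.49, against 0.18 for *Cat*.

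CYP2E1 receives electrons through partner proteins. *Cyb5r3*, which encodes cytochrome b5 reductase, fell from 1479.5 to 1379 CPM in IP (log2 fold change -0.094, adjusted p = 0.00177) and from 1317 to 1187 CPM in input (-0.15, adjusted p = 1.04e-10), and the partner genes *Por* and *Cyb5a* were not called with ethanol by edgeR. For *Por* in IP the adjusted p was 0.0536 by edgeR and 0.0492 by DESeq2 (log2 fold changes 0.066 and 0.057). Ethanol and acetaldehyde oxidation make NADH, and of 11 genes of NADH shuttles and lactate dehydrogenase 1 was higher and 2 lower in IP, and 1 was higher and 3 lower in input, with medians of -0.056 and -0.044. *Slc25a12*, the mitochondrial aspartate-glutamate carrier gene, rose from 56.8 to 68.3 CPM in IP (0.27, SE 0.0271, adjusted p = 4.72e-12) and from 50.3 to 60.5 CPM in input (0.26, SE 0.0319, adjusted p = 2.25e-14). *Ldhb* fell from 1206 to 1106 CPM in IP (-0.12, adjusted p = 9.35e-05) and from 677 to 625.5 CPM in input (-0.12, adjusted p = 3.63e-06). In IP against input 10 of the 11 were higher and none lower, with *Ldhb* at 0.83.

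Ethanol can also be joined to other molecules without oxidation, and 5 genes of these routes were tested, of which 2 were higher and 1 lower in each fraction (medians 0.045 in IP and 0.13 in input). *Pld2*, a phospholipase D gene, rose from 39.9 to 45.8 CPM in IP (log2 fold change 0.20, SE 0.0316, adjusted p = 8.68e-07) and from 37.1 to 42.5 CPM in input (0.19, SE 0.0365, adjusted p = 3.21e-06). *Lpl*, the lipoprotein lipase gene, rose from 12.01 to 14.7 CPM in IP (0.30, adjusted p = 7.88e-07). *Sult1a1*, a sulfotransferase gene, fell from 5.95 to 4.78 CPM in IP (-0.31, adjusted p = 7.79e-05). In input *Lpl* was at 0.13 (adjusted p = 0.0213) and *Sult1a1* at -0.24 (adjusted p = 0.0290). Both lost the input call without input control replicate 5 (adjusted p = 0.231 and 0.153) or input control replicate 6 (0.0901 and 0.0866). *Lpl* also lost it without input ethanol replicate 4 (0.394), and *Sult1a1* without input ethanol replicate 5 (0.181). With DESeq2 *Lpl* missed the threshold in input (adjusted p = 0.0823), and its input groups overlapped.

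*Acss2* is a known target of the sterol-sensing factor SREBP2, and 14 genes of sterol synthesis and uptake were set beside it. With ethanol 1 was higher and 4 lower in IP, and 1 was higher and 5 lower in input. The median log2 fold change of the 14 was -0.066 in IP and -0.075 in input, against -0.048 and -0.028 for *Acss2*, which was not called. *Dhcr7*, the gene of a late step of cholesterol synthesis, rose (by 0.17 in IP with an adjusted p of 0.000698, and by 0.21 in input with one of 0.000777).

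The genes whose level followed the members most closely over the 12 IP libraries were ranked by Pearson's r of log2 CPM among the 11066 genes whose mean reached 5 CPM. The libraries share the treatment groups, so a gene that differs between treatments is similar to any other that does, and r is given as a description. For *Cat* the 3 most similar genes were *Alkbh5* (r = 0.987), *Grid1* (r = 0.984) and *Wipi1* (r = 0.983). For *Aldh2* they were *Capn15* (r = 0.938), *Med22* (r = 0.934) and *Plekhn1* (r = 0.928). For *Adh5* they were *Ppie* (r = 0.942), *Pdzd11* (r = 0.940) and 0610037L13Rik (r = 0.937). Among the 10 genes themselves, r with *Cat* was 0.851 for *Aldh9a1*, 0.651 for *Aldh2*, -0.722 for *Adh5* and -0.637 for *Aldh7a1*, and *Adh5* and *Aldh7a1* had r = 0.787.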

How the data were processed

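RNA-seq was performed on 18 libraries of mouse cortical astrocyte cultures, 3 input control, 3 input ethanol, 6 IP control and 6 IP ethanol, grouped by their labels. The authors trimmed reads with Trimmomatic and aligned them to GRCm38 with the Ensembl annotation using STAR. The submitters' processing notes also name SAMtools and mm10, and versions are not given in the sources used here. The deposited values are raw counts of read pairs per gene, not normalized and without regard to strand. The single-library files gave the same counts (0 differences) and counts per strand. Reads not assigned to a gene were left out (on average 3.60% of pairs aligned to several places, 5.50% were ambiguous between genes and 2.98% lay outside genes). In the table of the whole series 27 symbols had been turned into dates and were restored by gene identifier. Positions are GENCODE on GRCm38.

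The genes and all lists were chosen with earlier results of these data known. Genes with at least 10 read pairs over all libraries were tested with edgeR 4.0.16 (R 4.3.3, TMM scaling, quasi-likelihood test, robust, two-sided), with Benjamini-Hochberg adjustment over 24495 genes and a threshold of 0.05. The CPM use the same scaling. IP and input were compared with treatment as a term, ethanol within each fraction, and the difference of the ethanol effects as an interaction. Up to 3 genes of each list and comparison, those with the largest log2 fold change among those passing, could be named, besides all 10 genes, and some of these list genes are not reported here. Intervals are 95%. Input and IP libraries of the same treatment and number came from the same dish by their labels, and their deviations from the group means correlated at 0.0340 to 0.206 over 11066 genes. Control and ethanol dishes share a number by their labels, and whether they share anything else is not given in the sources used here. No 2 libraries of the same group agreed within sampling noise. Alternatives were DESeq2 1.42.0, other scalings and filters, sense strand counts, a 1.2-fold null, a replicate block, subsets of libraries and each library left out. A further alternative removed trends of GC content and length, fitted by splines in each library, as offsets in edgeR. The fits were tested on simulated data. Promoter windows are RefSeq's, and protein sequences were not used here. Figures were drawn with matplotlib 3.10.9.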

Additional observations from a re-analysis of the deposited data

Results flagged for a closer look

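Among the 18 groups of 6 IP libraries examined (9 genes in 2 treatments), 1 held a library far from the others. *Aldh3a2*, the fatty aldehyde dehydrogenase gene, had 113.7 CPM in IP ethanol replicate 3, and the gap to the nearest of the other 5 libraries was 0.630 of the range of the group, against Dixon's critical value of 0.625. Chance flags about 1 in 20 groups. Without this library the log2 fold change of *Aldh3a2* with ethanol in IP was -0.0080 (adjusted p = 0.885, edgeR) in place of 0.0093 (adjusted p = 0.857), and the gene was not called in either fit. The cause was not tested.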

How the results depend on the processing

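Of the 9 genes, 8 were called in IP against input and 4 with ethanol in each fraction. Against a 1.2-fold null these became 4, 0 and 0. With IP replicates 4 to 6 only, 2 were called with ethanol, and with replicates 1 to 3 only, 1. With 1 library left out at a time, 8 to 8 were called in IP against input, 3 to 5 with ethanol in IP, 1 to 3 with ethanol in input (1 without input control replicate 6 or input ethanol replicate 4) and 0 to 0 in the interaction.

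Over all genes the 1.2-fold null left 4936, 95 and 55 calls of 12498, 5233 and 3672, and IP replicates 1 to 3 only left 2995. Leaving out 1 library gave 12069 to 12503, 4616 to 5244 and 2861 to 3164. In the interaction DESeq2 called 2 genes, and 0 to 1 were called with a library left out. The dishes with both fractions gave 13 without the dish block, 102 with it, and 51 with it and GC and length trends removed.

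Control and ethanol libraries with the same number correlated at -0.149 to 0.399 in IP and 0.0368 to 0.0736 in input in their deviations from the group means. With the number as a replicate block, all-gene calls were 5782 in IP and 3829 in input, *Aldh7a1* was also called in IP (-0.059, adjusted p = 0.0461, edgeR), and no other call of the 9 genes changed.

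Changes of sign were all among values that were not called. *Aldh9a1* in IP against input was -0.029 with total counts and -0.049 in control libraries. With ethanol in IP, *Aldh1b1* was -0.032 in replicates 4 to 6, and *Aldh3a2* was -0.00066 with filterByExpr, -0.0030 with sense strand counts, -0.0026 with these and the block, and -0.017 in replicates 4 to 6. With ethanol in input, *Aldh3a2* was 0.0025 with total counts, and *Acss2* 0.0017 with sense strand counts and 0.0025 with these and the block. In the interaction, without a filter *Adh5*, *Aldh3a2* and *Aldh7a1* were -0.0052, -0.0025 and -0.0061, with GC and length trends removed *Aldh2* and *Aldh7a1* were -0.0017 and -0.012, with these and the block *Aldh1b1* and *Aldh7a1* were -0.019 and -0.0042, with sense strand counts *Aldh7a1* was -0.0025, and with these and the block *Aldh1b1* was -0.0063. With 1 library left out, *Aldh9a1* ran from -0.0035 to 0.034 in IP against input and from -0.042 to 0.0077 with ethanol in input, *Aldh1b1* from -0.086 to 0.045 with ethanol in input, *Aldh3a2* from -0.0080 to 0.022 with ethanol in IP and from -0.031 to 0.011 in input, and in the interaction *Adh5* from -0.0099 to 0.013, *Aldh3a2* from -0.016 to 0.025 and *Aldh7a1* from -0.012 to 0.017. The cause was not tested.

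Sense strand counts with the block were added after seeing the data. GC and length trends were not removed for IP against input. The depth limited *Cyp2e1*, which had too few pairs to test.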
